A study of Mus musculus with 14 samples.

Results

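Apoe was 1 gene of the 47729 gene identifiers measured, and it was found by its symbol in the authors' expression matrix and joined by its identifier to the table of each library. Its transcripts were followed in microglia, the resident macrophages of the retina, sorted from C57BL/6 mice that were wild type and 12 weeks old. SMART-Seq2, which copies whole transcripts from few cells, gave 14 libraries, each from 1 retina. There were 3 libraries from retinas injected with microbeads (microbead), 3 from retinas contralateral to such an injection (contralateral), 4 from retinas with a sham injection (sham) and 4 from retinas with no treatment (naive). The labels call the microbead retinas glaucoma, in which the output neurons of the retina are lost. The groups share strain, age, genotype and sort, and neither the time after injection nor a pressure reading is given in the labels. The sort kept CD11b+ Ly6c- Fcrls+ cells, so that a cell which had lost Fcrls would not be among them. The labels do not say whether retinas of different groups came from the same mice, and p-values measure the spread between these libraries.

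Apoe encodes apolipoprotein E, the main secreted carrier of cholesterol and phospholipid in the brain and retina. It is made there mostly by Müller glia and astrocytes, and by microglia in disease. The protein takes up lipid released by the transporters ABCA1 and ABCG1, and it is bound by endocytic lipoprotein receptors and by TREM2. The nuclear receptors LXR and RXR drive its gene in macrophages. In mouse models of neurodegeneration, Apoe is among the genes that mark the switch of microglia to the state named MGnD, in which homeostatic genes are lowered.

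Apoe, ENSMUSG00000002985.16, lies on the minus strand of mouse chromosome 7 at chr7:19696109-19699188 in GRCm38 (the mm10 build of the labels), per GENCODE M21. The annotation gives it 11 transcripts, of which 9 are protein coding, with spliced lengths of 456 to 1408 bases. The gene tables sum these transcripts, and the mean transcript length weighted by abundance lay between 1090 and 1121 bases in the 14 libraries. The 250 bases before the most upstream RefSeq start (chr7:19699189-19699438, minus strand, GRCm38.p6, from RefSeq) are shown. The transcript Apoe-206, of 1408 bases, begins at that start, while Apoe-201, of 1128 bases, begins further downstream at 19699052. Which of these starts the counted reads came from was not tested, so the window need not adjoin the transcript most read. Capitals mark GGGTCA, a form of the hexamer bound by nuclear receptors, the class to which LXR and RXR belong.
Apoe upstream sequence: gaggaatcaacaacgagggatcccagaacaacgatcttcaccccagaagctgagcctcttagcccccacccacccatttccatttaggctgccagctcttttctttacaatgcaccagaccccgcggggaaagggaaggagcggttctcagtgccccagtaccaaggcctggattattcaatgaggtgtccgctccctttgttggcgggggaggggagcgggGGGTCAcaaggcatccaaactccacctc
The hexamer lies 28 to 23 bases upstream of that start on the strand of the gene. Letters were searched on both strands, and this hexamer is held by 11.6% of the 32851 promoter windows of RefSeq. The TATA box core, spelled TATAAA and found in 12.4% of windows, had 0 matches here. The GC box core, spelled GGGCGG and found in 32.7%, had 0 matches. The CCAAT box, found in 33.8%, had 0 matches as well.

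The libraries held 1.34 to 14 M reads assigned to genes. Microbead 1, the shallowest, and contralateral 2 had reads in fewer than 12000 genes, 10167 and 10306, and stand apart from the other 12 in this respect. All 9 microglial markers, among them P2ry12, Tmem119, Cx3cr1 and Fcrls, had reads in every group. Their summed level was 13696 to 28537 CPM (counts scaled to library size with TMM factors) in microbead libraries, against 22789 to 34625 in contralateral, 29623 to 32898 in sham and 20003 to 31168 in the naive ones.

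Apoe had 27323, 480342 and 276696 reads in microbead libraries 1 to 3. It had 20761, 9477 and 118101 reads in contralateral libraries 1 to 3. Sham libraries 1 to 4 held 29439, 70165, 73381 and 45666 Apoe reads, and naive libraries 1 to 4 held 55889, 71792, 62417 and 42241. Counting error is small at such counts beside the differences between retinas.

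As a share of the library, Apoe took 2.04% of the reads of microbead 1 (exact 95% interval 2.01 to 2.06), 4.51% of microbead 2 and 1.99% of microbead 3. It took 0.344%, 0.125% and 0.844% in contralateral libraries 1 to 3, and its lowest share of the study was in contralateral 2. The share was 0.346%, 0.517%, 0.578% and 0.359% in sham libraries and 0.792%, 0.589%, 0.569% and 0.351% in the naive ones. All 3 microbead libraries lay above all 11 others. Intervals cover counting error only, since reads are PCR copies without molecular identifiers.

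Scaled to library size, Apoe reached 19622, 53582 and 24312.5 CPM in microbead libraries 1 to 3. It reached 3947, 1494 and 7555 CPM in contralateral libraries 1 to 3, then 3284, 4928, 5568 and 3268 CPM in sham and 7578, 5379.9, 4969 and 3472 CPM in the naive ones. The lowest microbead library was 2.59-fold above the highest of the 11 others, naive 1, and microbead 2 was 10.9-fold above their median. Among 14279 genes tested, 298 or 2.09% had every microbead library above every other library in this way. The contralateral, sham and naive libraries overlapped one another.

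**Figure D1:**
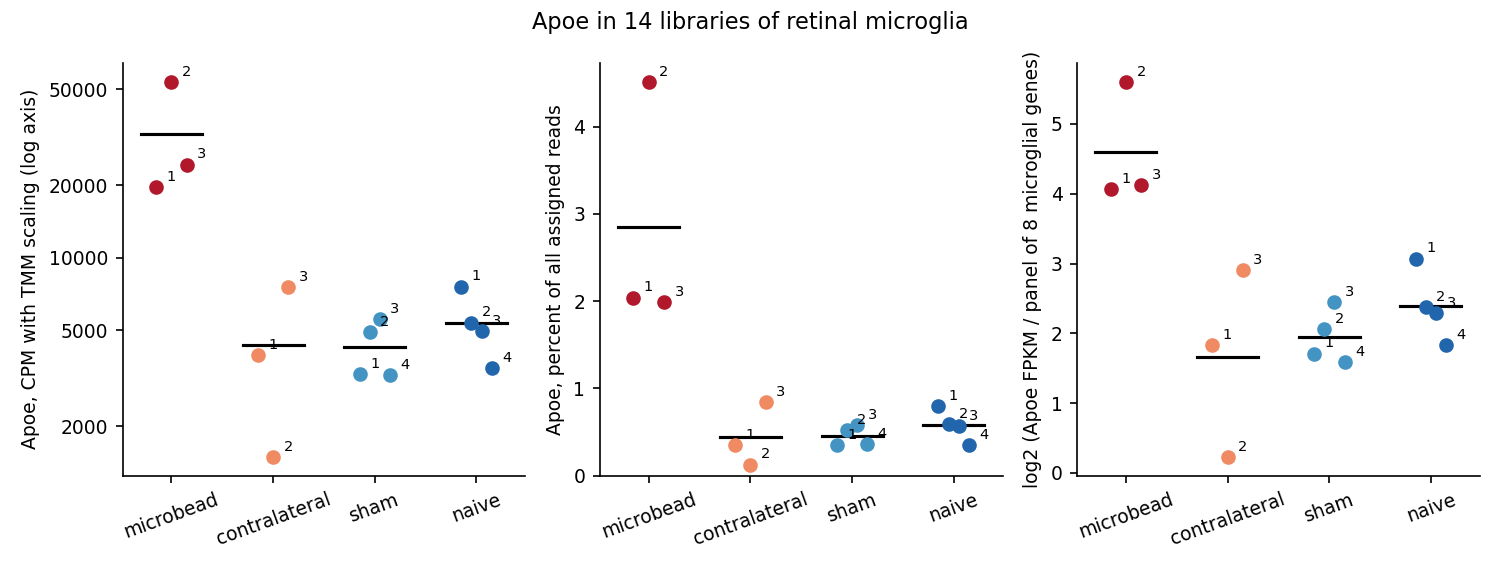
Apoe in each of the 14 retinal microglia libraries as CPM (log axis), as a percentage of reads and as the log2 ratio to a panel of 8 microglial genes. Points are single libraries with their replicate number and horizontal bars are group means. The 3 microbead libraries lie above all others in each panel, and on the log scales the contralateral libraries spread most.

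Apoe averaged 32505 ± 18403 CPM in microbead (SD, n = 3), 4332 ± 3049 in contralateral (n = 3), 4262 ± 1168 in sham (n = 4) and 5349.6 ± 1697 in the naive ones (n = 4). The ratio of the highest to the lowest library was 2.73 in microbead libraries, against 5.06 in contralateral, 1.70 in sham and 2.18 in naive. On the log2 scale the SD was 0.76 in microbead libraries, against 1.18 in contralateral, 0.40 in sham and 0.46 in naive. By mean level the order was microbead, naive, contralateral, sham, and the 3 lower groups were not separated beyond their spread.

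Apoe was higher in microbead than in sham libraries by 2.93 on the log2 scale (SE 0.44, 95% interval 1.96 to 3.90, a 7.63-fold difference), with an adjusted p of 0.0366 by edgeR's quasi-likelihood test and Benjamini-Hochberg adjustment over all genes. It had the smallest p of the 14279 genes in that comparison, in which 2 genes, 0.014%, passed. Among the 3151 genes with a mean of at least 50 CPM, its log2 difference ranked 5 from the top. The median log2 difference over all genes was -0.12.

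Against naive libraries Apoe was higher in microbead by 2.60 on the log2 scale (SE 0.43, interval 1.64 to 3.56, 6.08-fold, adjusted p = 0.0244, edgeR), and 30 genes or 0.21% passed, of which 27 or 0.189% were higher. Against contralateral libraries the difference was 2.91 (SE 0.49, interval 1.83 to 3.99, 7.50-fold, adjusted p = 0.0400, edgeR), and 4 genes or 0.028% passed, of which 3 or 0.021% were higher. Set against the mean of sham and naive, which uses 8 libraries, it was 2.77 (SE 0.35, interval 1.99 to 3.54, 6.81-fold, adjusted p = 0.00115, edgeR), with 183 genes or 1.28% past the threshold, 160 or 1.12% of them higher. These comparisons share the microbead libraries and are not independent of each other. A joint test of the 4 groups gave Apoe an adjusted p of 0.00611 (edgeR), the second smallest p of all genes, where 0.224% passed.

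The rise of Apoe against the mean of sham and naive stayed past the threshold of 0.05 without any 1 library (adjusted p 0.00024 to 0.0092, edgeR) and over all 29 alternatives, with log2 differences of 2.18 to 3.01. The single comparisons were less secure. Against sham, the call was lost without any of the 4 sham libraries (adjusted p 0.212, 0.0844, 0.117 and 0.263 for sham 1 to 4) and without any of the 4 naive libraries (0.0775, 0.0819, 0.0695 and 0.0510), while the log2 difference stayed between 2.34 and 3.17. Against naive, it was lost without microbead 2 (0.0553) and without naive 1 to 4 (0.0696, 0.114, 0.0827 and 0.0956). Against contralateral, it held only without microbead 1 or 3 or contralateral 3 (0.0443, 0.0157 and 0.00296), and was between 0.0523 and 0.0996 without any of the other 11. Without microbead 1 and contralateral 2 together, the libraries with few genes, the log2 difference was 3.17 against sham (adjusted p = 0.00245), 2.84 against naive (0.00348), 2.75 against contralateral (0.0342) and 3.01 against the mean of sham and naive (0.00018, edgeR). Without microbead 2, the highest library, the log2 difference was 2.34 against sham, 2.01 against naive and 2.34 against contralateral.

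In contralateral libraries Apoe did not pass against sham, with a log2 difference of 0.02 (SE 0.42, interval -0.92 to 0.96, adjusted p = 1.00, edgeR), or against naive, at -0.30 (SE 0.43, interval -1.25 to 0.64, adjusted p = 1, edgeR). The sham and naive libraries differed by -0.33 (SE 0.39, interval -1.20 to 0.54, adjusted p = 1, edgeR). The interval for contralateral over sham covers ratios of 0.529 to 1.95, so the groups are not shown to be alike. In these comparisons 0 genes passed with edgeR. Without contralateral 3, 21 genes passed for contralateral against sham and 11 for contralateral against naive. At an unadjusted p under 0.05 there were 694 genes (4.86%), 740 (5.18%) and 380 (2.66%) for contralateral against sham, contralateral against naive and sham against naive, the Wald test of DESeq2 called 72, 71 and 28 genes, and edgeR without a filter on low counts called 22, 21 and 14.

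**Figure D2:**
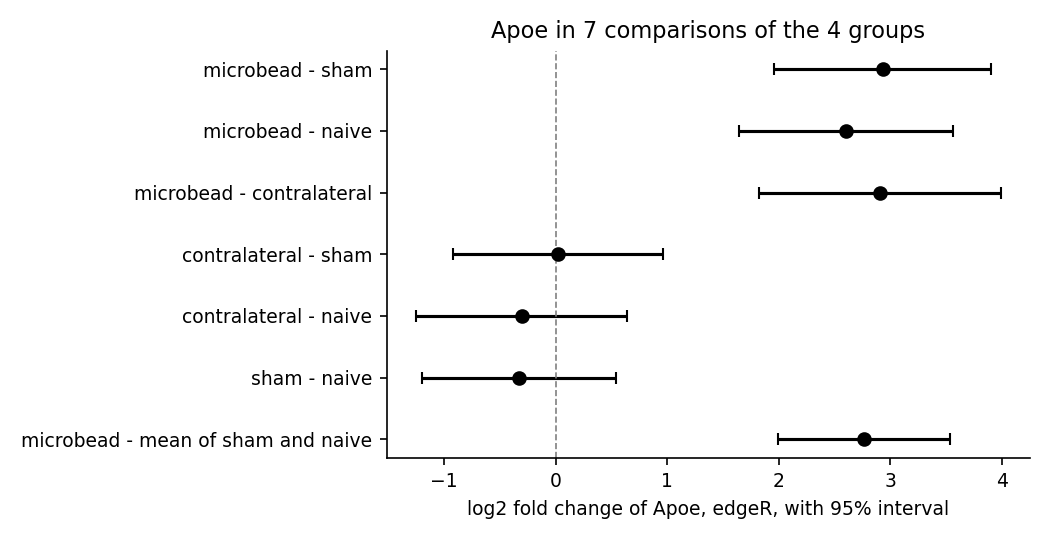
Log2 differences in Apoe between groups of libraries with 95% intervals from the standard error and 10 residual degrees of freedom. The p-values in the text came from edgeR's own test, whose degrees of freedom differ from these, so intervals and p-values do not match exactly. The comparisons of microbead with sham, naive and contralateral lie at 2.93, 2.60 and 2.91, and the intervals of the comparisons among contralateral, sham and naive cross 0.

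A ratio within a library does not depend on its size. Apoe FPKM (reads scaled to transcript length and to mapped reads) was divided by the geometric mean FPKM of 8 microglial genes, among them Csf1r, Itgam, Fcrls and C1qa. The log2 ratio was 4.07, 5.61 and 4.13 in microbead libraries, against 1.83, 0.23 and 2.90 in contralateral, 1.71, 2.06, 2.45 and 1.59 in sham and 3.07, 2.37, 2.28 and 1.83 in the naive ones. Microbead exceeded the mean of the 8 sham and naive libraries by 2.43, a 5.39-fold difference (two-sided exact permutation test, p = 0.0121, the smallest that 165 arrangements of 3 against 8 allow). Tyrobp and Aif1 of the panel were themselves higher in microbead than in sham and naive, with adjusted p of 0.0362 and 0.0278 (edgeR). Both were highest in microbead 1, the shallowest library. Tyrobp had 3242, 1336 and 1460 CPM in microbead libraries 1 to 3, and contralateral 1 and 2 had 1605 and 1445. Aif1 had 1290, 546 and 480 CPM in microbead libraries 1 to 3. Without microbead 1 and contralateral 2, Tyrobp did not pass. Csf1r of the panel was lower, at 4326, 3028 and 3710 CPM in microbead libraries, against 5517 to 6925 in sham and 4680 to 6791 in the naive ones. The share of all genes that lay lower in this way is not given here. Of the 8 panel genes, 5 had a log2 difference above 0 against the mean of sham and naive. The panel is thus not a fixed reference.

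Apoe was among the most abundant transcripts of these cells by FPKM. Ranks were taken among the 47273 identifiers of the authors' matrix, and identifiers outside it were not ranked. Apoe ranked 3, 1 and 2 in microbead libraries 1 to 3, 9, 44 and 3 in contralateral, 9, 6, 4 and 9 in sham and 3, 4, 5 and 9 in the naive ones. Its FPKM averaged 34323 ± 18331 in microbead libraries, against 5434 ± 4723 in contralateral, 5585 ± 1412 in sham and 7044 ± 2148 in the naive ones. Cst3, which encodes the protease inhibitor cystatin C and led the list in most libraries, averaged 46019 FPKM in microbead libraries, against 51759.5 in contralateral, 44187 in sham and 45283 in the naive ones. It was uneven in microbead libraries 1 to 3, at 80838, 21478 and 35740 FPKM. Microbead 1 had the highest Cst3 of all libraries and microbead 2 the lowest. The ratio of Apoe to Cst3 FPKM was 0.286, 2.58 and 0.683 in microbead libraries, against 0.0731, 0.0251 and 0.274 in contralateral, 0.0963, 0.146, 0.174 and 0.0954 in sham and 0.198, 0.159, 0.161 and 0.0988 in the naive ones. Apoe exceeded Cst3 in microbead 2 alone, the library with the most Apoe and the least Cst3.

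Apoe sits in a cluster of apolipoprotein genes, and 9 other genes are annotated within 60 kb of it. Apoc1, which encodes apolipoprotein C1, lies 3.45 kb downstream, followed by Apoc4 at 14.63 kb and Apoc2, the activator of lipoprotein lipase, at 18.17 kb. Tomm40, a subunit of the mitochondrial import pore, lies 2.12 kb upstream. These neighbours were read at far lower levels than Apoe. None of them passed the test against sham, naive or contralateral libraries.

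Apoc2 had 156, 91.9 and 11.7 FPKM in microbead libraries, against 0, 0 and 10.2 in contralateral, 0 in all 4 sham libraries and 0, 11.55, 0 and 0 in the naive ones. The microbead libraries were the highest 3, and the adjusted p against the mean of sham and naive was 0.0588 (edgeR), which missed the threshold. Apoc4 had 67.1, 26.4 and 20.2 FPKM in microbead libraries, against 0 in all contralateral, 0, 0, 11.17 and 0 in sham and 0, 16.1, 6.52 and 0 in the naive ones (adjusted p = 0.470, edgeR). All microbead values of Apoc4 lay above all others, though at low levels of 19.4, 7.81 and 6.24 CPM, with 3.67 in naive 2 the highest other. By CPM, 298 or 2.09% of genes tested had every microbead library above every other, Apoc2 and Apoc4 among them. Apoc2 and Apoc4 both overlap the annotated gene Gm44805, which was listed at 0, and reads could be split among the overlapping genes.

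Apoc1 had 0, 225 and 17.8 FPKM in microbead libraries, against 0, 0 and 0.5 in contralateral, 0, 0, 32.6 and 6.9 in sham and 25, 23.3, 20.5 and 15.7 in the naive ones. It was high in microbead 2, the library with most Apoe, and its groups overlapped. Tomm40 averaged 37.4 ± 3.41 FPKM in microbead libraries, against 53.3 ± 46.6 in contralateral, 45.7 ± 10.5 in sham and 41.1 ± 9.77 in the naive ones, a log2 difference of 0.07 between microbead and sham. Nectin2, further upstream, had a log2 difference of 1.52 (adjusted p = 0.626) and Clptm1, further downstream, of -0.86 (adjusted p = 0.559, edgeR) between the same groups.

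**Figure D3:**
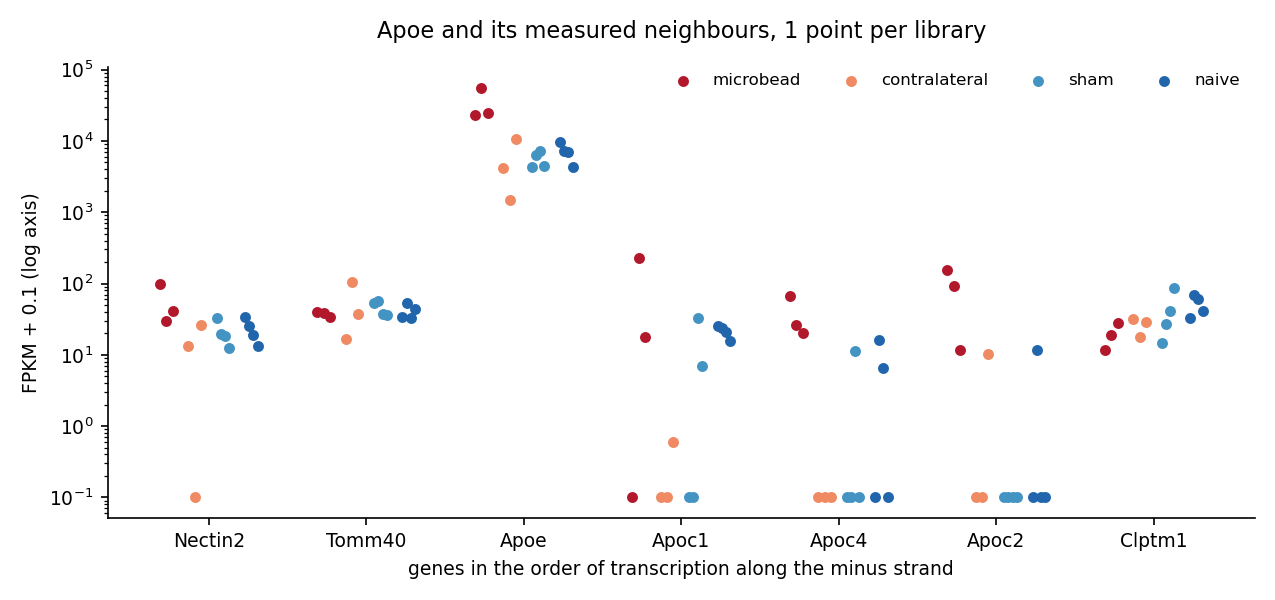
FPKM of Apoe and its annotated neighbours in the 14 libraries on a log axis, with points at 0.1 standing for 0 FPKM. Apoe lies above its neighbours in each library, and Apoc2 and Apoc4 had reads in all 3 microbead libraries and in few others.

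The genes that act on apoE were taken by role. Among 10 receptors and uptake proteins, 7 had enough reads to test, and 0 passed in microbead against the mean of sham and naive, where 1.12% of all genes were higher and 0.161% lower. Their median log2 difference was 0.20, beside -0.12 for all genes. Trem2, the receptor that senses lipid on microglia, averaged 2089 ± 144 FPKM in microbead libraries, against 2285 ± 500.4 in contralateral, 1990.2 ± 118 in sham and 1815 ± 104 in the naive ones. Its log2 difference against sham and naive was 0.32 (SE 0.20). Lrp1, an endocytic receptor, averaged 42.4 ± 16.3 FPKM in microbead libraries, against 155 ± 58.9 in contralateral, 84.3 ± 14.5 in sham and 120.4 ± 26.8 in the naive ones, with a log2 difference of -0.50 (adjusted p = 0.547, edgeR).

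Of 15 transporters and enzymes that load lipid onto apoE or release cholesterol for it, 14 were tested and 0 passed, near the 1.12% of all genes that were higher and the 0.161% that were lower. Their median log2 difference was 0.20, beside -0.12 for all genes. Npc2, the lysosomal protein that carries cholesterol to the membrane, averaged 255 ± 47.3 FPKM in microbead libraries, against 137 ± 53.9 in contralateral, 189.6 ± 7.10 in sham and 176 ± 7.64 in the naive ones, with a log2 difference of 0.77 (adjusted p = 0.0866, edgeR). Without microbead 1 and contralateral 2, an alternative added after the data were seen, Npc2 was the 1 gene of the 14 to pass, where 0.292% of 15420 genes tested were higher. Abca1 and Abcg1, chosen for their role after their values were seen, differed by 0.13 (SE 0.69) and 0.77 (SE 0.79). Of 13 other apolipoproteins, 3 had enough reads, those being Apoc1, Apoc2 and Apoc4. Clu, the other abundant apolipoprotein of astrocytes, had reads in 1 library.

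Of 16 nuclear receptors and transcription factors, 14 were tested and 0 passed, near the 1.12% of all genes that were higher and the 0.161% that were lower. Their median log2 difference was -0.30, beside -0.12 for all genes. Nr1h2, which encodes LXR beta, averaged 56.8 ± 10.6 FPKM in microbead libraries, against 67.1 ± 21.5 in contralateral, 68.6 ± 21.1 in sham and 62.7 ± 16.1 in the naive ones. Nr1h3, which encodes LXR alpha, had reads in 4 libraries and was not tested. A p that misses the threshold does not show that these genes were alike between groups.

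Of 25 other genes of the MGnD and disease-associated state, all tested, 8 rose in microbead against the mean of sham and naive and 0 fell, where 1.12% of all genes tested were higher and 0.161% lower. Their median log2 difference was 1.27, beside -0.12 for all genes. The 8 were Gpnmb, Ccl2, Cd52, Cd63, Fth1, Tyrobp, Ctsl and B2m. Cd63, a tetraspanin of lysosomes, averaged 1130.1 ± 109 FPKM in microbead libraries, against 456 ± 226 in contralateral, 505 ± 92.3 in sham and 350 ± 16.8 in the naive ones, a log2 difference of 1.72 (SE 0.26, adjusted p = 0.00532, edgeR). Fth1, which encodes the heavy chain of ferritin, averaged 6120.4 ± 1734 FPKM in microbead libraries, against 3451 ± 586 in contralateral, 3432 ± 151 in sham and 3076 ± 355 in the naive ones, a log2 difference of 1.18. Cd9, another tetraspanin of the list, averaged 766 ± 465 FPKM in microbead libraries, against 1570 ± 419 in contralateral, 1651 ± 229 in sham and 1467 ± 313 in the naive ones, a log2 difference of -0.68 that did not pass (SE 0.35, adjusted p = 0.451, edgeR). Clec7a, a receptor of fungal glucans that was picked here after its values were seen, had a log2 difference of -0.30 (SE 0.57, adjusted p = 0.906, edgeR). Against sham alone 0 of the 25 passed, where 0.014% of all genes were higher. Against naive 4 passed, namely Cd63, Ccl2, Fth1 and Cd52, where 0.189% of all genes were higher. Without microbead 1 and contralateral 2, 5 of the 25 rose against the mean of sham and naive (Gpnmb, Cd63, Ctsl, Ccl2 and Fth1), where 0.292% of 15420 genes were higher, and Cd63 also against sham, where 0.0259% were. This state list was compiled from general knowledge of microglia, with earlier results of these libraries known.

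Of 18 homeostatic genes, 0 rose and 1 fell in the same comparison, where 1.12% of all genes were higher and 0.161% lower. Their median log2 difference was -0.43, beside -0.12 for all genes. The one was Cx3cr1, the fractalkine receptor, which averaged 757 ± 222 FPKM in microbead libraries, against 1844 ± 444 in contralateral, 1958 ± 205 in sham and 1663 ± 398 in the naive ones (log2 difference -0.88, SE 0.20, adjusted p = 0.0345, edgeR). Without microbead 1 and contralateral 2, 0 of the 18 passed. P2ry12, a purinergic receptor of resting microglia, averaged 493 ± 360.5 FPKM in microbead libraries, against 1578 ± 752 in contralateral, 2049 ± 129 in sham and 1765 ± 618 in the naive ones (log2 difference -1.5, adjusted p = 0.0948, edgeR).

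**Figure D4:**
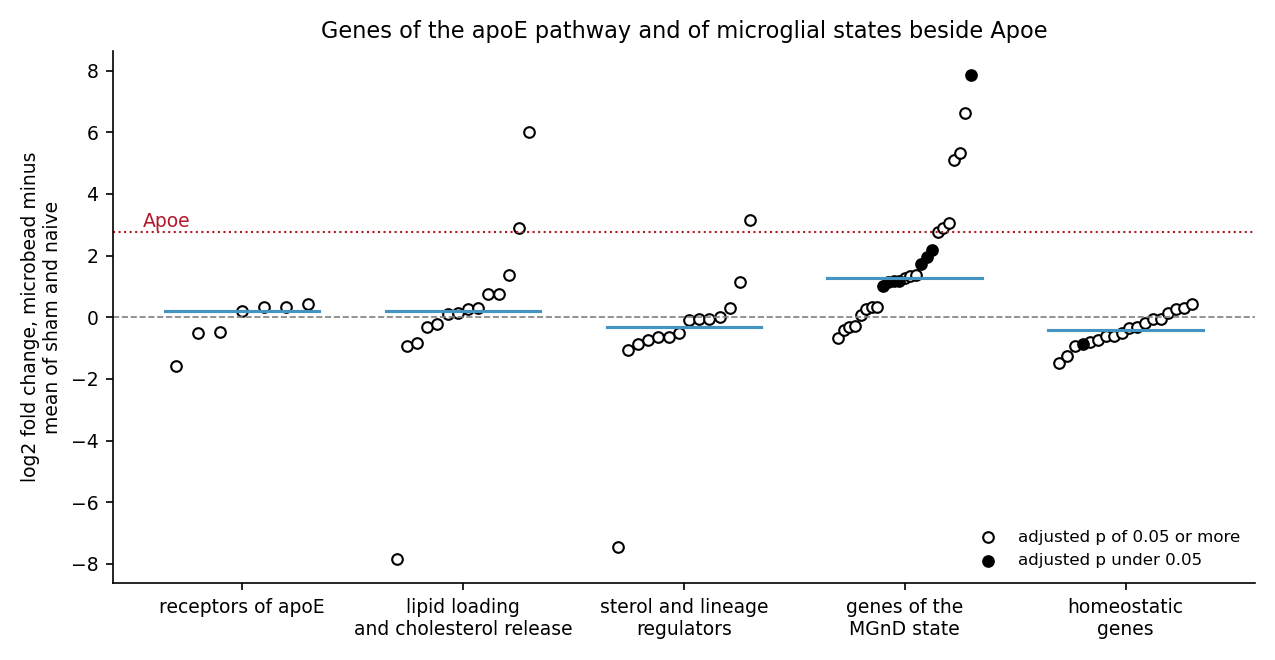
Log2 differences of microbead against the mean of sham and naive for the genes of each list, with blue bars for list medians and a dotted line at the value of Apoe, 2.77. Filled points passed at an adjusted p under 0.05, and the lowest point of the lipid loading genes and of the regulators is a gene with 0 FPKM in all microbead libraries, whose position depends on the fit. Receptors, lipid loading genes and regulators centre near 0, and the state genes centre at 1.27.

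Likeness to Apoe was measured by Pearson's r of log2 CPM over the 14 libraries, among 3015 other genes with a mean of at least 50 CPM. Genes without a symbol, predicted genes, Rik clones and pseudogenes, as told by their symbols, were left out. The highest values were 0.88 for Tonsl, Npc2 and Naca, 0.85 for Ensa and 0.82 for Rps15a, and the lowest were -0.89 for Uvssa, -0.87 for Tspyl1, Tacc1 and Numb, and -0.86 for Rptor. Once each group's mean was subtracted, the genes that varied most like Apoe within groups were Adh5 (0.89), Fubp1 (0.88), Ezh1 (0.87), Map3k14 (0.86) and Ccpg1 (0.85). Npc2 kept an r of 0.64 within groups. The points share a library and its depth, and these are descriptions of 14 libraries.

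Apoe is also made by cells other than microglia, and in bulk libraries fewer cells of a type and less RNA per cell cannot be told apart. Müller glia and astrocytes, which carry much Apoe, were followed by 12 markers, of which Gfap, Sox9, Dkk3, Crym and Abca8a were at 0 in all microbead libraries. The same 5 were at 0 in all contralateral libraries, and Gfap and Sox9 in every library. Rlbp1, another of the 12, had 0, 31.0 and 0.09 CPM in microbead libraries 1 to 3. Its highest value elsewhere was 13.1 in sham 3. The summed level of the 12 markers was 242 to 390 CPM in microbead libraries, against 317 to 697 in contralateral, 278 to 385 in sham and 305 to 384 in the naive ones, and the groups overlapped. Most of that sum was Glul, which encodes glutamine synthetase, at 357, 234 and 189 CPM in microbead libraries, against 430, 676 and 234 in contralateral, 157 to 312 in sham and 242 to 288 in the naive ones. The overlap of the sums is therefore mainly that of 1 gene. Border-associated macrophages, read from 8 markers, summed to 222 to 330 CPM in microbead libraries, against 738 to 1052 in contralateral, 391 to 612 in sham and 377 to 543 in the naive ones. Stab1 made up most of this sum, at 127, 197 and 217 CPM in microbead libraries and 446 to 1009 in contralateral. Cbr2, Lyve1 and Cd163 were at 0 in microbead, and Cbr2 also in all contralateral and naive libraries. Ms4a7 went the other way, at 88.3, 102 and 96.3 CPM in microbead libraries. Its highest other value was 75.8 in naive 4, and 2.09% of genes tested had every microbead library above every other.

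Of 10 markers of monocytes and infiltrating macrophages, 7 had enough reads to test and 0 passed in any comparison, where at most 1.28% of all genes did. Against the mean of sham and naive, 6 of the 7 were higher in microbead, with a median log2 difference of 2.99, beside -0.12 for all genes. The 10 markers summed to 77.6, 185 and 136 CPM in microbead libraries, against 18.6, 15 and 63.5 in contralateral, 18.5 to 101 in sham and 2.30 to 23.1 in the naive ones. Each microbead library lay above each naive and contralateral one in this sum, while sham 2 lay above microbead 1. Ly6c2 and Chil3 were at 0 in every library, but the sort kept Ly6c- cells, so the lack of Ly6c2 tells little. Cd44 had 76.8, 23.3 and 25.6 CPM in microbead libraries, and its highest other value was 20.2 in sham 2. Every microbead library lay above every other in 2.09% of genes tested. Fn1 had 0, 111 and 38.3 CPM and S100a4 0, 22.0 and 31.9, with 14.3 and 18.1 in sham 2 as the highest others. Ccr2, Itga4, Plac8 and Vcan had their highest values in other groups. The part of these cells in the Apoe difference was not tested. Rod photoreceptor markers summed to 461 to 3959 CPM in microbead libraries, against 2049 to 3316 in contralateral, 819 to 1530 in sham and 238 to 2875 in the naive ones, and the highest value was in microbead 2. The weighted transcript length of Apoe was 1121 bases in microbead 1, the highest, and removing a trend of level on transcript length left a log2 difference of 2.77 against sham (adjusted p = 0.0266, edgeR, an alternative added after the data were seen), within a range of 5.3e-60 to 0.263 over all alternatives, the lowest being without a filter on low counts.

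**Figure D5:**
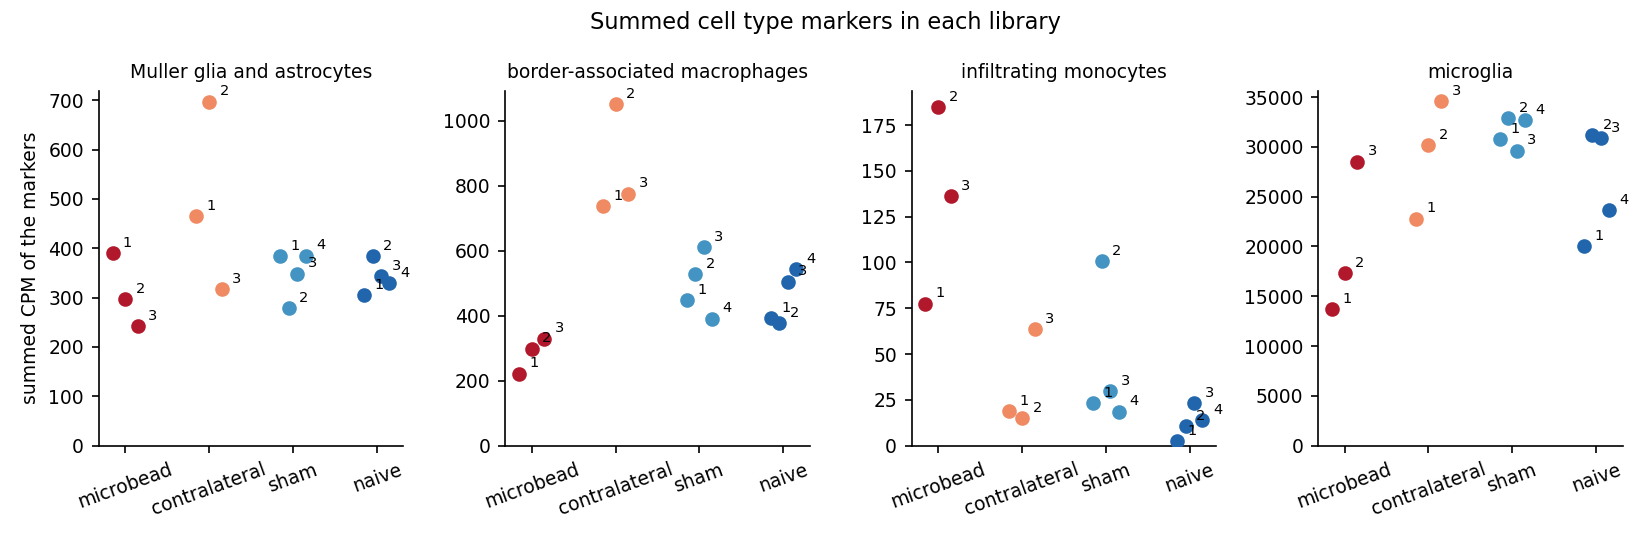
Summed CPM of marker genes of 4 cell types in each library. Points are single libraries. Müller glia and astrocyte markers overlap between groups, and monocyte markers are higher in microbead than in the naive ones.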

How the data were processed

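Each library has a table in which the authors deposited expected counts (estimated reads per gene, scaled neither to depth nor to length) and TPM, together with FPKM, relative to effective length and to mapped reads, per the file headers. TPM served for no test. A matrix of FPKM by the authors covers 47273 of 47729 identifiers, and its Apoe values equalled those of the single tables. Salmon 1.4.0, R 4.0.3, DESeq2 1.30.1 and mm10 are named in the submitters' processing notes, without their roles, and none of them is tied to a table there.

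Expected counts were rounded and fitted in R 4.3.3 with edgeR 4.0.16 (quasi-likelihood, robust, TMM, filterByExpr with a minimum count of 10), with all 14 libraries in 1 fit, 10 residual degrees of freedom and no covariate. This left 14279 genes, over which p-values were adjusted by Benjamini-Hochberg. A gene passed at an adjusted p under 0.05. The ratio to the panel was tested with scipy 1.17.1. Alternatives used limma 3.58.1 and DESeq2 1.42.0. Library totals were 1.34 to 14 M reads. Groups came from the labels.

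Genes were named by a rule: Apoe, its neighbours within 60 kb, up to 6 genes of highest FPKM from each list, genes most and least like Apoe, and genes that passed in a list. Apoe and the lists were chosen with earlier results of these data known. Results for some of the listed genes are not reported here.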

Additional observations from a re-analysis of the deposited data

Results flagged for a closer look

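Apoe itself had no library far from its group by Dixon's test in sham or naive, the groups of 4. Of 94 such groups tested over 47 measures, 5 had a library whose gap to the nearest other took more of the range than Dixon's 95% critical value, and chance gives about 1 in 20. Apoc2 was at 11.55 FPKM in naive 2 and at 0 in the other naive libraries. Apoc4 was at 11.17 FPKM in sham 3 and at 0 in the other sham libraries. Spi1, which encodes the transcription factor PU.1, was at 278.61 FPKM in sham 4, where the nearest sham library was at 158.57. The summed monocyte markers were at 100.712 CPM in sham 2, with the nearest at 29.9. The summed ganglion cell markers were at 14.8857 CPM in naive 3, with the nearest at 4.80.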

How the results depend on the processing

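Over 29 alternatives Apoe was higher in microbead in each, by log2 differences of 2.34 to 3.17 against sham, 2.01 to 2.84 against naive and 2.34 to 3.58 against contralateral, also the ranges on leaving out 1 library. The call against sham was lost with limma on log2(FPKM + 1) or log2(FPKM + 0.1) (2.53 each), no scaling factor (2.66) and only the groups compared (2.93). Against naive it was lost with the same 2 FPKM settings (2.22 each) and no scaling (2.31). Against contralateral it was lost with upper-quartile factors (2.91), no scaling (2.70), a minimum count of 50 (2.93), identifiers absent from the authors' matrix left out (2.92), limma voom (2.65), removal of a trend on effective length (2.66) or transcript length (2.64) and only the groups compared (2.90). The joint test lost its call with the FPKM settings (adjusted p 0.0652 and 0.0881), and ran from 0.00147 to 0.0491 on leaving out 1 library. Contralateral against sham turned sign with upper-quartile factors (-0.018), no scaling (-0.040), no filter (-0.0084) and both FPKM settings (-0.43), and ran from -0.65 to 0.42 on leaving out 1 library. Contralateral against naive turned sign with voom (0.056) and without the libraries under 12000 genes (0.0910), and ran from -0.98 to 0.0908 on leaving out 1 library. The cause was not tested. The number of genes called ran from 0 to 464 against sham, 0 to 569 against naive, 0 to 676 against contralateral, 10 to 804 against the mean of sham and naive and 1 to 453 jointly, 0 to 72 for contralateral against sham, 0 to 71 for contralateral against naive and 0 to 28 for sham against naive. The log2 panel ratio differed by 1.93 to 2.69 on leaving out 1 library and by 2.71 without Tyrobp and Aif1. The microbead libraries do not overlap the others in it, so each exact p there is the smallest its number of libraries allows and says nothing of stability.

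The replicate numbers were not treated as pairing the libraries, since no label says what they mark. Over 19 pairs with the same number the deviations correlated at -0.05 to 0.14, with 3 above 0.1. Pairs with different numbers were not compared, so these values cannot show whether a number marks a mouse or a batch. With the replicate block the log2 difference of microbead was 2.80 against sham, 2.45 against naive and 2.95 against contralateral, none past the threshold, the joint adjusted p was 0.0939, and contralateral against sham was -0.15.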
